A study of Mus musculus with 10 samples.

Results

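The genes described here are 33 genes of adipocyte identity and lipid storage, chosen by symbol from the 23282 entries that each deposited table holds for whole mouse skin. They were grouped by role as adipokines, droplet coat, triglyceride synthesis, lipolysis, uptake, and regulators with other adipocyte genes. All 33 symbols were found, 32 passed the filter on low values, and Ucp1 had no read in any library. The samples were 10 skin libraries of C57BL/6 mice at 5 months of age: 5 from mice with keratinocyte-specific ablation of STAT3 (STAT3cKO) and 5 from wild-type mice (WT). STAT3 is a transcription factor downstream of cytokine receptors, and its ablation was aimed at epidermal cells, not at fat. The sources used here do not give the driver of the ablation, the deleted exons, sex, litter, body site, hair phase or any pooling of animals. They also do not say whether 1 library stands for 1 mouse, so the p-values measure spread among libraries, which may be technical in part. The study's title concerns barrier genes of keratinocytes and does not name fat.

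Mouse skin holds a layer of white adipocytes beneath the dermis. These cells store fatty acids as triglyceride in a single large droplet, coat it with perilipins and CIDE proteins, release the fatty acids by stepwise lipolysis, and secrete hormones such as adiponectin and leptin. The nuclear receptor PPARγ and C/EBPα switch on and maintain this programme. The layer is known to thicken and thin with the hair cycle and with feeding. Sebaceous glands make lipid droplets too, and some genes of the programme are active there and in muscle.

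Promoters of a few members are shown with the letters of factors that drive this programme. RefSeq promoter windows on GRCm38.p6, from 250 bases before to 50 bases after a start, were at hand for 22 of the 33 genes, with 30 windows in all. The letters TTGCNNAA, a form of the C/EBP motif, were sought on both strands. They stood in 5 of the 30 member windows (16.7%) and in 10.8% of all 32851 windows. The letters AGGTCA, a single arm of the paired PPARγ and RXR site, stood in 8 member windows (26.7%) and in 16.3% of all windows. The STAT letters TTCNNNGAA stood in 1 member window, that of Lipe, and in 8.30% of all windows. The direct repeat that PPARγ and RXR bind, sought as 2 such arms with 1 base between, stood in 0 member windows and in 0.0396% of all. Windows of 1 gene can overlap, and a match is a description of letters, not a binding site. The windows of Lep, Plin1 and Pparg are shown because they hold the C/EBP letters, given in capitals. That of Mgll is shown because Mgll is the only member with every STAT3cKO library above every WT library, although it did not pass the test, and its window holds none of these motifs. No other motif searched overlaps the capitals.
Lep, chr6:29059971-29060270, plus strand: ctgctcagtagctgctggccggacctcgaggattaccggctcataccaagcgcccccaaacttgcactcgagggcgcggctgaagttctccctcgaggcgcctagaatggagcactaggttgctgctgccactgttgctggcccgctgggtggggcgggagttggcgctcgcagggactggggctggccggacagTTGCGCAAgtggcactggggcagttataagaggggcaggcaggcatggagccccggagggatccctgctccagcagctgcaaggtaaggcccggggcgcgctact
Plin1, chr7:79732727-79733026, minus strand: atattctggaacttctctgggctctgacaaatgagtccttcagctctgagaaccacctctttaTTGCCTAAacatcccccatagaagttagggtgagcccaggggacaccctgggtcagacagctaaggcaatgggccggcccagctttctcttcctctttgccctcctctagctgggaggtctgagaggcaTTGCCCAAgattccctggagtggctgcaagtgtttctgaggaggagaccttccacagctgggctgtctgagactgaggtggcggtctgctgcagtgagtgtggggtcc
Pparg, start inside the gene, chr6:115421816-115422115, plus strand: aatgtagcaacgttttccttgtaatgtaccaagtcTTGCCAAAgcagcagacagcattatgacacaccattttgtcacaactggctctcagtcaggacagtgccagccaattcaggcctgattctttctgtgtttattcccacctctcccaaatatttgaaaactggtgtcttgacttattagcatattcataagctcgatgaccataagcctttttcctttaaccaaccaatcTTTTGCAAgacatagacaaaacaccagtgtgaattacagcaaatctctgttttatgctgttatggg
Mgll, chr6:88724162-88724461, plus strand: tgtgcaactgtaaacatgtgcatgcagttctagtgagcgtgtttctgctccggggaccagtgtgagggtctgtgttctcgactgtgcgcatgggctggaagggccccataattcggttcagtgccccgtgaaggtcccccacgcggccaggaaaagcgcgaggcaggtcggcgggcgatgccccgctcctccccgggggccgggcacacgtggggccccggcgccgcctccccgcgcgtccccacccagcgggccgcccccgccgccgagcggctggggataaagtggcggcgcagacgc
The C/EBP match of Lep begins 55 bases before the start. Those of Plin1 begin 187 and 58 bases before it, and those of Pparg 215 and 16 bases before it.

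Values are the authors' log2 values of scaled reads plus 1, counted at the 3′ ends of transcripts. Such counts need no correction for transcript length. Levels of different genes can be compared only roughly, since the annotation and strand use of the counting are not known here. Estimated depth was 7494670 to 18362600 reads in STAT3cKO libraries and 7185420 to 16644900 reads in WT libraries. STAT3cKO 2 stood apart: it lacked Xist (0.06, against 8.65 to 11.01 in the other 9 libraries) and carried the Y-linked Ddx3y (10.62, against 0 to 1.26). That is the pattern of a male, and the other 9 libraries, all 5 WT among them, had that of females. STAT3cKO 2 also had no read of 2617 of the 11536 tested genes. WT 3 had no read of 1273, and the other 8 libraries had no read of 83 to 1097. The keratinocyte gene Krt5 had 12.58 to 14.40 in STAT3cKO and 11.85 to 13.73 in WT. The dermal collagen gene Col1a1 had 12.38 to 15.155 in STAT3cKO and 12.56 to 13.90 in WT. Other keratinocyte genes differed more, such as Krt1 with 10.94 to 14.50 in STAT3cKO and 7.91 to 11.13 in WT. Stat3 had values of 9.49 to 10.81 in STAT3cKO and 9.08 to 10.29 in WT. Reads at the 3′ end of a transcript from whole skin check nothing about a deletion in keratinocytes.

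Most of the adipocyte genes stood lower in STAT3cKO skin, and 3 passed the test over all genes. These were Aoc3, an amine oxidase on the adipocyte surface, Car3, a carbonic anhydrase abundant in fat, and Tusc5, a partner of the insulin-regulated glucose transporter. Aoc3 fell by 3.45 on the log2 scale, Car3 fell by 3.06 and Tusc5 fell by 2.50. Of the 32 tested members 3 fell, 0 rose and 29 did not pass. At an unadjusted p under 0.05 the numbers were 23 lower, against 5.95% of all genes tested, and 1 higher. The median change was -1.86, against -0.16 over all tested genes. A negative change was found in 30 of the 32, the exceptions being Mgll and Cidea, and the sign of Dgat1 turned with equal totals. Fewer adipocytes, less RNA per adipocyte and a different share of other cells in the sample cannot be told apart in whole skin.

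The test was limma on all 11536 tested genes with Benjamini-Hochberg adjustment, STAT3cKO minus WT, 5 libraries each. In that fit 0.459% of genes were called lower, 0.529% higher and 0.988% in either direction, and 56.2% of changes were negative. In 3 members (Lep, Car3 and Aoc3) all 5 STAT3cKO libraries lay below all 5 WT libraries, against 1.72% of tested genes. In 1 member, Mgll, all 5 lay above, against 1.71% of tested genes. The count of 3 rests on single libraries. It was 0 without WT 1, without WT 2 or without WT 3, when 0.217, 0.208 and 0.225% of all genes were called lower. It was 1 without STAT3cKO 1 (0.277% of all genes) and 1 without STAT3cKO 5 (0.329%), 2 without STAT3cKO 3 (0.321%) and 2 without WT 5 (0.312%). It was 4 without STAT3cKO 4 (0.425%), 9 without STAT3cKO 2 (0.537%) and 11 without WT 4 (0.962%).

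Other settings moved the count as well. It was 0 when limma's mean trend and robust estimation were left out (0.269% of all genes), 8 at a pseudocount of 16 (0.737%) and 15 with array quality weights (1.5%). It was 13 in the 4 deeper libraries alone (0.798%), STAT3cKO 4 and 5 against WT 1 and 2, and 0 in the 6 shallower ones (0.0347%). The deeper set also leaves out STAT3cKO 2 and WT 4, so depth and choice of libraries cannot be told apart. With the replicate number as a block it was 4 (0.277%).

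**Figure D1:**
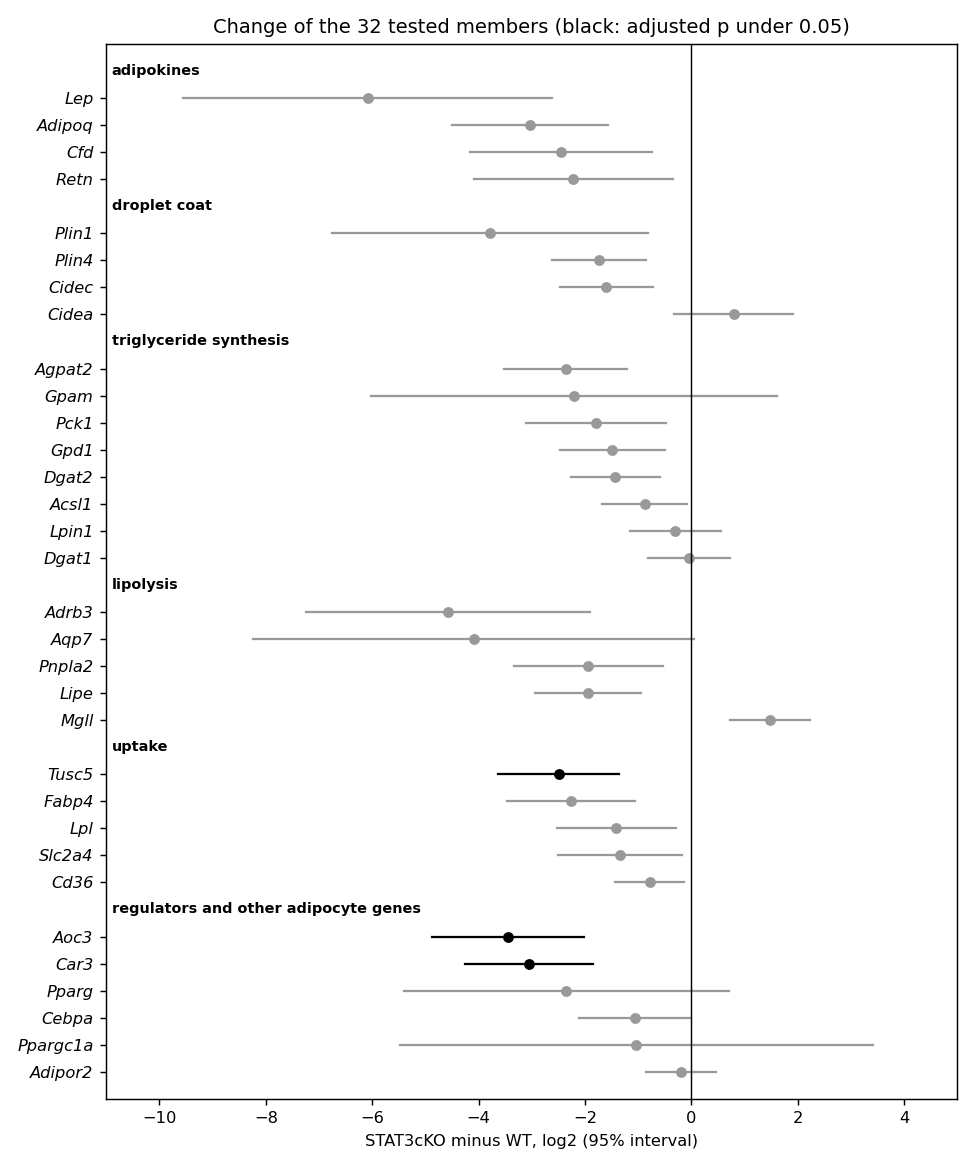
Change of each tested member, STAT3cKO minus WT in deposited log2 units, with 95% intervals from limma (n = 5 libraries each), by role. Black marks the 3 members with an adjusted p under 0.05 (Tusc5, Aoc3 and Car3), and only Mgll and Cidea lie right of 0.

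The adipokines are the hormones that fat cells secrete. Adiponectin (Adipoq, chromosome 16, 23146536 to 23158028, plus strand of mm10) raises insulin sensitivity in liver and muscle. It had values of 11.02, 13.45, 10.55, 11.55 and 11.51 in STAT3cKO 1 to 5, against 15.30, 15.77, 15.36, 12.84 and 14.01 in WT 1 to 5. The groups overlapped at STAT3cKO 2 and WT 4. The difference was -3.04 (SE 0.66, limma adjusted p = 0.0680). Without WT 4 it was -3.49 (adjusted p = 0.0124), and without STAT3cKO 2 it was -3.50 (adjusted p = 0.00773).

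Leptin (Lep), which tells the brain of the body's fat stores, had 0.04, 7.55, 0.01, 4.33 and 1.06 in STAT3cKO 1 to 5, against 9.14, 9.66, 8.56, 7.65 and 8.44 in WT 1 to 5. STAT3cKO 1 and 3 had no read of it, and the highest STAT3cKO library lay just under the lowest WT library. The change was -6.09 (SE 1.65, limma adjusted p = 0.0917). It was -3.77 (adjusted p = 0.0281) when the pseudocount was 16, since a pseudocount of 1 stretches the distance to libraries without a read.

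Complement factor D (Cfd, adipsin) was the most abundant member in both groups. It had 14.47, 16.89, 14.27, 14.51 and 14.41 in STAT3cKO 1 to 5, against 17.78, 18.32, 18.38, 15.02 and 17.28 in WT 1 to 5. STAT3cKO 2 stood over 2 log2 units above the other 4 STAT3cKO libraries, and WT 4 stood near the STAT3cKO level. The change was -2.45 (SE 0.76, limma adjusted p = 0.240). Resistin (Retn), an adipokine of mouse fat, had a mean of 11.65 ± 1.42 in STAT3cKO and 13.87 ± 1.40 in WT (SD, n = 5 each). Its change of -2.22 did not pass (limma adjusted p = 0.365).

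Among the 4 droplet coat genes 3 had lower means and 1 a higher mean in STAT3cKO, and 0 passed. Perilipin 1 (Plin1), which guards the droplet surface from lipases, had 5.72, 9.59, 0.01, 7.36 and 6.05 in STAT3cKO 1 to 5, against 10.92, 10.49, 9.86, 7.86 and 8.53 in WT 1 to 5. STAT3cKO 3 had no read of it. The groups differed by -3.79 (SE 1.39, limma adjusted p = 0.299), by -2.87 at a pseudocount of 16 and by -2.35 without STAT3cKO 3. Perilipin 4 (Plin4), which coats small droplets, had a mean of 9.63 ± 0.53 in STAT3cKO and 11.37 ± 0.96 in WT, a change of -1.74 (SE 0.42, limma adjusted p = 0.0573). Cidec, which fuses droplets into a single large one, had 12.06 ± 0.55 in STAT3cKO and 13.66 ± 0.98 in WT, a change of -1.60 (SE 0.41, limma adjusted p = 0.0884).

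Cidea, a relative of Cidec in brown fat and sebaceous glands, had a higher mean in STAT3cKO. Its values were 12.42, 11.87, 10.47, 12.25 and 11.61 in STAT3cKO 1 to 5, against 11.73, 10.12, 11.72, 9.27 and 11.80 in WT 1 to 5. The groups overlapped, and the change of 0.80 had a 95% interval of -0.32 to 1.92 (limma adjusted p = 0.592). It was 0.38 without WT 4.

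The 8 genes of triglyceride synthesis carry a fatty acid and a glycerol backbone to triglyceride. None of the 8 was called, all 8 had a negative change (Dgat1 not with equal totals), and 5 had an unadjusted p under 0.05. Agpat2, whose loss causes congenital lipodystrophy in humans, had 8.48, 11.10, 8.91, 9.46 and 7.76 in STAT3cKO 1 to 5, against 11.28, 11.37, 12.58, 10.52 and 11.78 in WT 1 to 5. Only STAT3cKO 2 reached into the range of WT. The change was -2.36 (SE 0.54, limma adjusted p = 0.0532). Its exons overlap those of Egfl7, an endothelial gene on the other strand. Strand use in the counting is unknown here, so reads of such partners cannot be told apart, and 8 of the 33 members have one.

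Dgat2, an enzyme of the last step, had a mean of 11.26 ± 0.67 in STAT3cKO and 12.69 ± 0.85 in WT, a change of -1.43 (SE 0.40, limma adjusted p = 0.107). Its unrelated counterpart Dgat1 had 10.79 ± 0.48 in STAT3cKO and 10.83 ± 0.75 in WT. Its change was -0.04 with a 95% interval of -0.81 to 0.73 and was 0.07 with equal totals. Gpd1 and Pck1 supply the glycerol backbone. Gpd1 averaged 10.32 ± 0.98 in STAT3cKO and 11.80 ± 0.81 in WT, and Pck1 averaged 9.63 ± 1.27 in STAT3cKO and 11.43 ± 1.01 in WT. The change of Gpd1 was -1.49 (limma adjusted p = 0.173) and that of Pck1 -1.79 (limma adjusted p = 0.252). Acsl1, which activates fatty acids with coenzyme A, differed by -0.88 (limma adjusted p = 0.402). Lpin1, the phosphatidate phosphatase, had a change of -0.30 (95% interval -1.16 to 0.55). Gpam, the acyltransferase of the committed step, had no read in STAT3cKO 2 and 3 and values of 4.01 to 7.59 in WT. Its change of -2.21 (SE 1.82) became -0.85 at a pseudocount of 16, and was -1.20 without STAT3cKO 2 and -1.19 without STAT3cKO 3.

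Triglyceride is cut by Pnpla2 (ATGL), then by Lipe (hormone-sensitive lipase) and at last by Mgll (monoacylglycerol lipase), while Adrb3 is the β3-adrenergic receptor that starts the chain and Aqp7 lets glycerol out. None of the 5 passed, 4 had lower means and Mgll a higher mean in STAT3cKO. Mgll (chromosome 6, 88724412 to 88828360, plus strand) had 15.04, 14.20, 13.66, 15.06 and 13.92 in STAT3cKO 1 to 5, against 13.40, 13.28, 13.31, 11.67 and 12.88 in WT 1 to 5. Every STAT3cKO library lay above every WT library. The change was 1.47 (SE 0.35, limma adjusted p = 0.0615, 95% interval 0.72 to 2.22), a 2.77-fold difference. Adjusted p ranged from 0.00344 to 0.433 over 25 alternatives, and the change was positive in each. Its exons overlap those of the predicted gene Gm26588 on the other strand.

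Lipe had 9.71, 8.40, 9.22, 10.38 and 7.76 in STAT3cKO 1 to 5, against 11.58, 11.05, 11.90, 10.18 and 10.45 in WT 1 to 5. Only STAT3cKO 4 lay above the lowest WT library, WT 4. The change was -1.94 (SE 0.47, limma adjusted p = 0.0596). Pnpla2 had a mean of 9.83 ± 1.23 in STAT3cKO and 11.77 ± 1.15 in WT, also a change of -1.94 (SE 0.64, limma adjusted p = 0.243). Adrb3 had 4.81, 0.06, 7.18, 8.57 and 5.61 in STAT3cKO 1 to 5, against 9.80, 11.44, 9.96, 8.50 and 9.40 in WT 1 to 5. STAT3cKO 2 had no read of it, although that library had the highest Adipoq, Cfd and Plin1 of its group. The groups differed by -4.57 (SE 1.27, limma adjusted p = 0.102), and -3.57 (adjusted p = 0.0191) at a pseudocount of 16. Aqp7 had no read in 3 STAT3cKO libraries and in 1 WT library, WT 5, and values of up to 5.75 in STAT3cKO and 8.14 in WT.

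Uptake genes bring fatty acids and glucose into the cell. All 5 had a negative change and an unadjusted p under 0.05, and 1 of the 5 passed. Tusc5 (chromosome 11, 76679808 to 76698664, plus strand, named Trarg1 in the annotation) had 8.06, 9.90, 9.003, 9.14 and 9.85 in STAT3cKO 1 to 5, against 12.69, 12.08, 12.61, 9.70 and 11.33 in WT 1 to 5. WT 4 lay within the STAT3cKO range. The change was -2.50 (SE 0.53, limma adjusted p = 0.0364, 95% interval -3.63 to -1.36). Leaving out 1 library at a time, it passed in 2 of 10 fits, without STAT3cKO 2 or WT 4. In the other 8 the adjusted p was up to 0.105.

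Fabp4, the fatty acid carrier of the adipocyte cytoplasm, had 14.15, 16.395, 13.85, 14.66 and 14.38 in STAT3cKO 1 to 5, against 17.68, 17.48, 17.63, 15.83 and 16.14 in WT 1 to 5. The change was -2.26 (SE 0.54, limma adjusted p = 0.0927), with STAT3cKO 2 inside the WT range. Lipoprotein lipase (Lpl), which frees fatty acids from blood lipoproteins, had 13.82 ± 0.92 in STAT3cKO and 15.23 ± 0.92 in WT, a change of -1.41 (limma adjusted p = 0.314). Slc2a4, the insulin-regulated glucose transporter of fat and muscle, differed by -1.35 (limma adjusted p = 0.374). Cd36, a fatty acid receptor that many skin cells carry, had the smallest of the 5, -0.79 (SE 0.31, limma adjusted p = 0.345).

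Of the 7 regulators and other adipocyte genes 2 fell and 4 did not pass, and Ucp1, the heat-producing uncoupler of brown fat, was listed at 0 throughout. For a gene that was counted, a 0 allows up to 3 reads, a value of up to 1.44 to 2.46 depending on the library. However, 5996 of the 23282 entries were at 0 in every library, the hair shaft gene Dsg4 among them. Whether Ucp1 was counted is not known. Car3 (chromosome 3, 14863512 to 14872523, plus strand) had 9.55, 11.39, 8.25, 10.96 and 10.43 in STAT3cKO 1 to 5, against 13.75, 14.08, 13.27, 12.44 and 12.33 in WT 1 to 5. The groups did not overlap. The change was -3.06 (SE 0.56, limma adjusted p = 0.0209, 95% interval -4.26 to -1.85), an 8.33-fold difference. Leaving out 1 library at a time, Car3 passed in 5 of 10 fits and missed the threshold without STAT3cKO 1, STAT3cKO 5, WT 1, WT 2 or WT 3 (adjusted p up to 0.0729).

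Aoc3 (chromosome 11, 101330605 to 101341938, plus strand), also an enzyme of smooth muscle and vessel walls, had 6.94, 5.94, 6.06, 6.89 and 8.23 in STAT3cKO 1 to 5, against 10.84, 12.26, 10.64, 9.17 and 8.38 in WT 1 to 5. STAT3cKO 5 and WT 5 nearly met. The change was -3.45 (SE 0.68, limma adjusted p = 0.0186, 95% interval -4.88 to -2.01), a 10.9-fold difference. Aoc3 passed in 7 of 10 such fits and missed the threshold without WT 1, WT 2 or WT 3 (adjusted p up to 0.0953).

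The master regulators did not pass. Pparg had 7.46, 0.06, 8.25, 8.96 and 8.60 in STAT3cKO 1 to 5, against 9.32, 9.60, 7.91, 8.97 and 9.28 in WT 1 to 5. STAT3cKO 2 had no read of it. The groups differed by -2.35 (SE 1.42, limma adjusted p = 0.567), and -0.70 without that library. Cebpa had 9.23 ± 0.70 in STAT3cKO and 10.30 ± 1.13 in WT, a change of -1.07 (SE 0.50, limma adjusted p = 0.449). Adipor2, an adiponectin receptor that many tissues carry, had 11.70 ± 0.26 in STAT3cKO and 11.89 ± 0.66 in WT. Its change was -0.20, with a 95% interval of -0.85 to 0.46. Ppargc1a, a coactivator of mitochondrial genes, had no read in STAT3cKO 1, STAT3cKO 2 and WT 3, and its interval ran from -5.48 to 3.41.

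**Figure D2:**
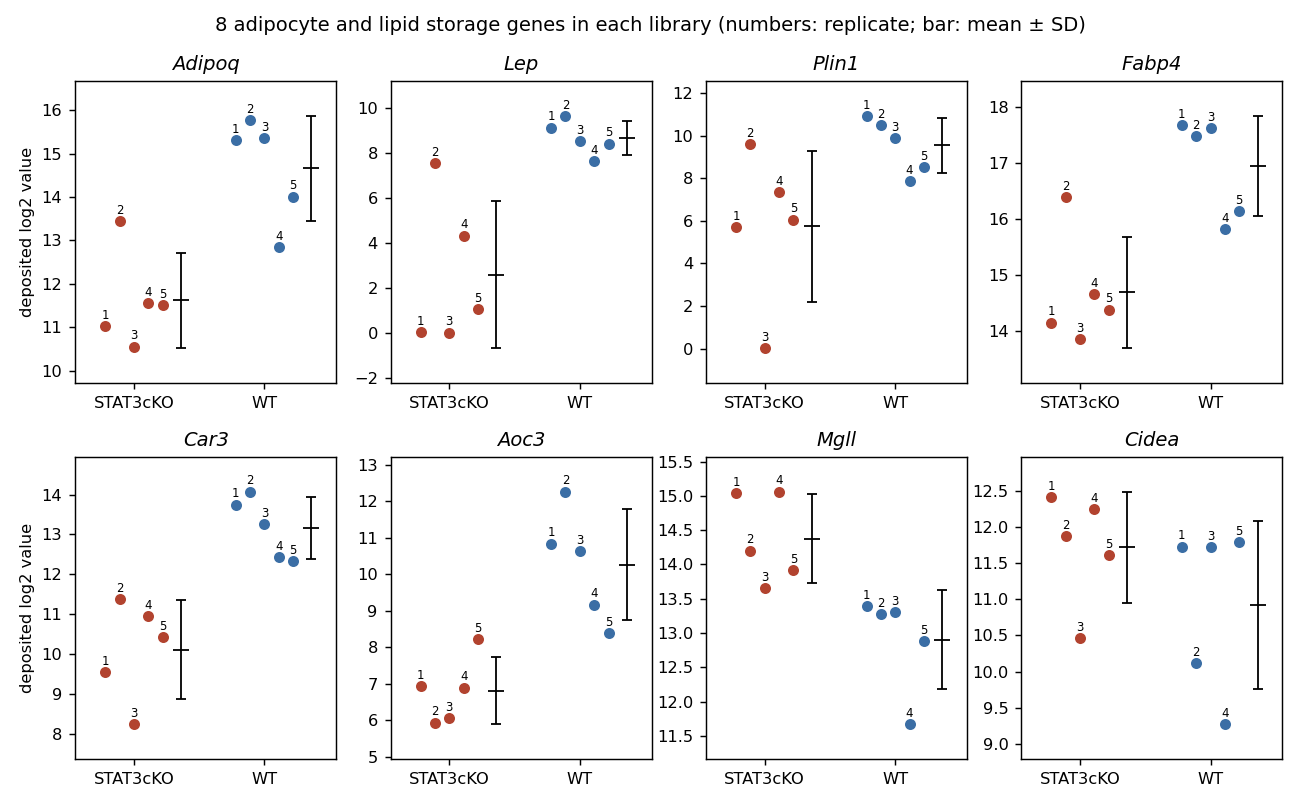
Deposited log2 values of 8 members in each library, STAT3cKO left and WT right, with replicate numbers beside the points and mean ± SD as bars. Groups are apart in Lep, Car3, Aoc3 and Mgll, where Mgll lies higher in STAT3cKO, and STAT3cKO 2 lies above WT 4 in Adipoq and above WT 4 and WT 5 in Fabp4.

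Differences between members of 1 library do not depend on how libraries were scaled against each other. Members that share a step or a family were set against each other in this way in 4 combinations chosen after their values were seen. Cidea minus Cidec was 0.66, -0.69, -1.06, -0.48 and -0.11 in STAT3cKO 1 to 5, against -2.62, -4.11, -2.73, -2.97 and -1.21 in WT 1 to 5. Cidec led in each WT library by over 1 log2 unit, and in STAT3cKO 1 Cidea led. Dgat1 minus Dgat2 averaged -0.48 ± 0.86 in STAT3cKO and -1.87 ± 0.42 in WT (SD, n = 5 each). Mgll minus Lipe averaged 5.28 ± 0.72 in STAT3cKO and 1.88 ± 0.44 in WT. Mgll minus Pnpla2 averaged 4.55 ± 1.10 in STAT3cKO and 1.14 ± 0.67 in WT. In each of the 4 the groups did not overlap, which is a description with no test, since the values chose the combinations. The last 2 share Mgll, so they are not independent. Such a difference does not say which of its genes differed between the groups.

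**Figure D3:**
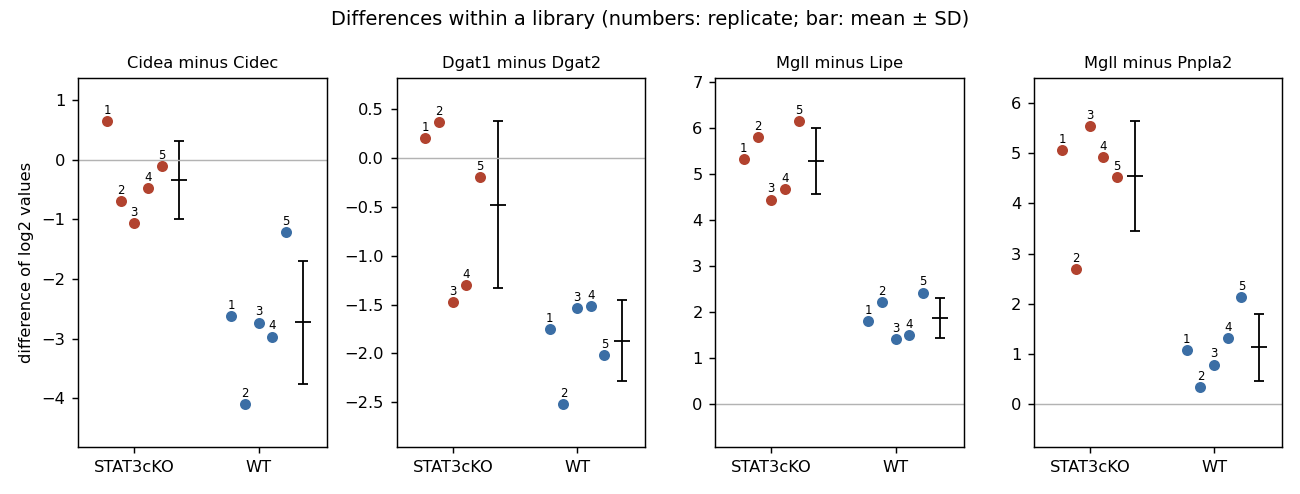
Difference of log2 values between members of the same library, STAT3cKO left and WT right, with mean ± SD as bars (n = 5 each). In all 4 panels each STAT3cKO library lies above each WT library.

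The 33 members took 1.16, 3.10, 0.759, 1.56 and 1.04% of the unlogged total in STAT3cKO 1 to 5, against 6.07, 7.11, 6.91, 1.39 and 3.22% in WT 1 to 5. WT 4 lay within the range of STAT3cKO, and STAT3cKO 2 came close to WT 5. Cfd alone took 0.184 to 1.16% in STAT3cKO and 0.293 to 3.00% in WT. Fabp4 took 0.138 to 0.821% in STAT3cKO and 0.513 to 1.88% in WT. By mean level Cfd and Fabp4 ranked 1 and 2 among the members in either group. Mgll ranked 3 in STAT3cKO and 8 in WT, Cidea ranked 7 in STAT3cKO and 20 in WT, Adipoq ranked 10 in STAT3cKO and 4 in WT, and Car3 ranked 16 in STAT3cKO and 7 in WT. The mean of Cfd was 14.91 ± 1.11 in STAT3cKO and that of Fabp4 14.69 ± 0.999, so their order there is within the spread between libraries.

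**Figure D4:**
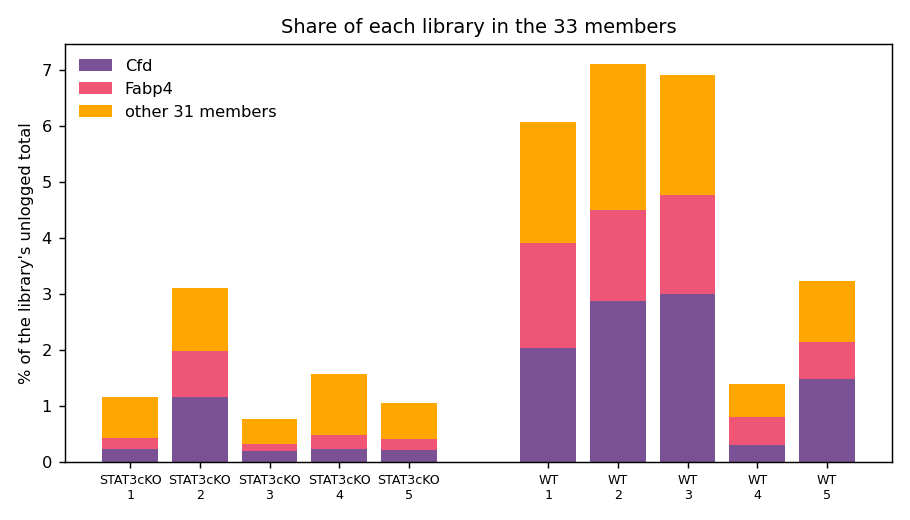
Share of each library's unlogged total taken by the 33 members, in percent, with Cfd and Fabp4 apart from the other 31. STAT3cKO libraries lie at 0.759 to 3.10% and WT libraries at 1.39 to 7.11%.

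Libraries of 1 genotype differed widely, and mostly together across members. WT 4 was the lowest WT library in 24 of the 32 tested members, while WT 1 and WT 2 were the highest in 11 each. STAT3cKO 2 was the highest of its group in 14 and STAT3cKO 4 in 12. STAT3cKO 3 was the lowest in 14. The median of the tested members was 9.66, 11.03, 9.48, 10.97 and 10.01 in STAT3cKO 1 to 5, against 12.05, 12.08, 12.18, 10.27 and 11.09 in WT 1 to 5.

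Keratins and other genes of the growing hair shaft followed the same split of the libraries. The mean of the 16 genes of that list was 8.53, 0.14, 11.46, 0.36 and 8.65 in STAT3cKO 1 to 5, against 0.65, 0.78, 3.48, 12.53 and 2.42 in WT 1 to 5. STAT3cKO 1, 3 and 5 and WT 4, the 4 libraries high in hair shaft genes, were also the 4 lowest in the median of the members. In the other 6 libraries, STAT3cKO 2 and 4 against WT 1, 2, 3 and 5, the median change of the members was -1.52 and 30 of 32 changes were negative. Of the members 2 fell there, Tusc5 by 2.66 (limma adjusted p = 0.00625) and Car3 by 2.18 (limma adjusted p = 0.0216), against 0.381% of all tested genes called lower in that fit. Of its STAT3cKO libraries, STAT3cKO 2 had the pattern of a male and no read of 2617 tested genes. Its WT libraries all had the pattern of females, and the part of sex in these changes was not tested. In the 4 libraries high in hair shaft genes, WT 4 is the only WT library. The median there was -0.91 and 25 of 32 changes were negative, values that rest on WT 4 alone. With WT 4 assumed to vary like the others 0 members passed, and with 0.0173% of all genes called lower that count says nothing of stability. Adding the hair list mean as a term gave 9 members lower and 1, Mgll, higher, with 0.641% of all tested genes called lower. These 3 fits were chosen after the data were seen, and the part of the hair cycle in the changes was not tested further.

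**Figure D5:**
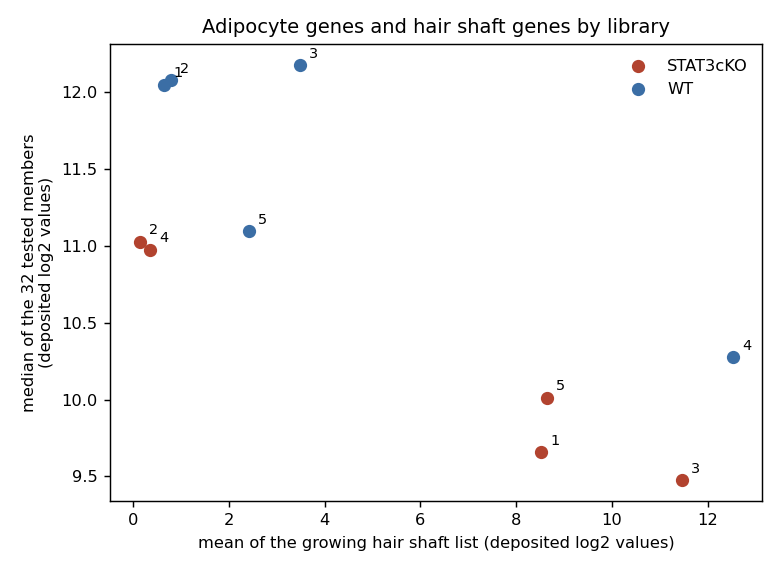
Median of the 32 tested members against the mean of the growing hair shaft list, both in deposited log2 values, 1 point per library with its replicate number. The 4 libraries with a hair list mean over 8 are the 4 with the lowest member medians, and among the other 6 STAT3cKO 2 and 4 lie below WT 1, 2, 3 and 5.

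Partner genes of the same pathways were listed beside the members. Of 15 tested partners of droplets and lipolysis 1 fell, 0 rose and 13 changes were negative, with a median of -0.92. The one called was Cav1, the caveola protein that adipocytes hold in plenty, at 9.29, 10.29, 10.20, 10.32 and 10.12 in STAT3cKO 1 to 5, against 12.38, 12.88, 11.46, 10.64 and 11.38 in WT 1 to 5 (change -1.71, limma adjusted p = 0.0405). Cav1 is also made by endothelial cells and fibroblasts. Of 12 secreted and surface genes of adipocytes 0 passed and 10 changes were negative (median -1.37). The lowest p-values were those of Rbp4, the retinol carrier, at -1.65 (limma adjusted p = 0.104) and Orm1, an acute phase protein, at -1.32 (limma adjusted p = 0.104).

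The tested isoforms of triglyceride synthesis outside the members did not share that direction. Of 11 tested 0 passed, 4 changes were negative and 7 positive, with a median of 0.36. Mogat1, left out by the filter on low values, had no read in any STAT3cKO library or in WT 4. The other WT libraries had 7.43 to 9.24 of it. Acsl4, which prefers arachidonic acid, averaged 10.26 ± 0.24 in STAT3cKO and 8.54 ± 1.09 in WT (limma adjusted p = 0.0910). Agpat5, an acyltransferase, averaged 10.39 ± 0.39 in STAT3cKO and 9.18 ± 0.75 in WT (limma adjusted p = 0.180). In both genes the groups did not overlap. Of 8 uptake partners 0 passed (median -1.28). Fabp5, the epidermal relative of Fabp4, had 13.85 ± 0.34 in STAT3cKO and 12.26 ± 1.44 in WT (change 1.58, limma adjusted p = 0.327), and Gpihbp1, which anchors lipoprotein lipase in capillaries, differed by -3.40 (limma adjusted p = 0.352). Of 11 adipogenic transcription factors 0 passed and 7 changes were positive, including Klf4 at 0.96 (limma adjusted p = 0.0910) and Cebpb at 1.66 (limma adjusted p = 0.144), both also active in keratinocytes.

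Among 12 genes of fatty acid synthesis 0 passed and 9 changes were negative (median -0.56). Acaca, acetyl-CoA carboxylase, averaged 9.73 ± 0.85 in STAT3cKO and 11.85 ± 1.22 in WT (limma adjusted p = 0.0980). The elongase Elovl6 averaged 12.54 ± 0.61 in STAT3cKO and 11.32 ± 0.61 in WT (limma adjusted p = 0.104). Of 7 tested thermogenic genes 1 rose, Elovl3, and 5 changes were negative. Elovl3 had 12.34 to 13.65 in STAT3cKO and 6.195 to 10.33 in WT, a change of 4.31 (SE 0.61, limma adjusted p = 0.00355). Elovl3 is an elongase of brown fat that sebaceous glands and hair follicles also make, and which cells its reads came from was not tested. Of 9 adipocyte progenitor genes 0 passed, and the signs were mixed, with 5 changes negative and 4 positive (median -0.62). The 2 with the lowest p were Ly6a at -0.82 (limma adjusted p = 0.414) and Dpp4 at -0.92 (limma adjusted p = 0.507).

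Markers of other skin cells differed in both directions. Of 11 tested genes of interfollicular keratinocytes 0 passed and 10 changes were positive (median 1.30). Their summed unlogged level was 98100 to 208818 in STAT3cKO and 33248 to 100553 in WT. Of 10 tested sebocyte genes 2 rose, Krt79 by 2.67 and Soat1 by 3.10 (limma adjusted p = 0.000460 and 0.00167), 0 fell, and 4 changes were negative and 6 positive (median 0.29). Scd3, a desaturase of sebaceous glands named after its values were seen, had 0 to 7.80 in STAT3cKO and 8.77 to 11.20 in WT, a change of -6.71 (limma adjusted p = 0.0520). The list had a summed level of 30017 to 74657 in STAT3cKO and 14408 to 36023 in WT, and Mc5r at 0 in every library. Of 12 tested macrophage genes 1 fell, Retnla by 3.10 (limma adjusted p = 0.0186), a gene that fat also makes, and all 12 changes were negative. Their sum was 6863 to 25405 in STAT3cKO and 16429 to 63930 in WT. All 16 skeletal muscle genes were tested, 0 passed and 14 changes were negative, with sums of 10361 to 306790 in STAT3cKO and 36048 to 583883 in WT. Of 12 fibroblast genes 1 fell, Dpt by 1.53 (limma adjusted p = 0.0287), while 8 changes were negative and 4 positive (median -0.58). Their sums were 28827 to 156022 in STAT3cKO and 71584 to 114628 in WT. Endothelial genes (12 tested), erythrocyte genes (7 tested), genes of mammary epithelium (7 tested) and the hair shaft list (8 tested) had 0 calls, with Wap and Dsg4 at 0 in every library. The erythrocyte list stood far higher in STAT3cKO 2, with a sum of 668915. Its sums were 48132 to 112188 in the other STAT3cKO libraries and 34018 to 115188 in WT. The part of these cell types in the changes of the adipocyte genes was not tested.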

How the data were processed

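Each library came as 1 table of log2 values by gene symbol, as the authors deposited it. Per the submitters' processing notes, Bowtie2, bedtools and the build mm10 were used. Per the labels' protocols, RNA was extracted with Trizol and made into Lexogen QuantSeq libraries, which read 3′ ends. Versions, annotation, strand, scaling and duplicate treatment: not given in the sources used here. No header names the unit, but the deposited values behave as log2 of scaled reads plus 1. Low values lay at multiples of a step, the worth of 1 read, and 89.8 to 100% of values of up to 20 reads were whole within 0.15 of a read. Dividing the unlogged sums by it gave the depths, which cover counting error only. Values under 0.5 of a read were taken as no read.

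Genes with a value of at least 5 in at least 5 libraries were fitted by genotype alone in R 4.3.3 with limma 3.58.1, using a mean trend and robust estimation, and an adjusted p under 0.05 over all of them was a call. Changes are STAT3cKO minus WT, ± gives SDs, and intervals are at 95%. The steps were checked on simulated data. All 33 members are named. From each partner list the called genes are named, or else the 2 with the lowest p. The members and lists were chosen with earlier results of these data known. Pearson's r across tested genes was 0.457 to 0.737 over library pairs, so no library was a copy of another. These values cannot show whether each library came from a different mouse. Gene positions come from GENCODE M21 and promoters from RefSeq on GRCm38.p6, the build mm10. Alternatives were other filters, pseudocounts, scalings, moderation, weights, the replicate block and subsets of libraries.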

Additional observations from a re-analysis of the deposited data

Results flagged for a closer look

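In groups of 5 libraries, 4 of 68 sets of values had a highest or lowest library far from the others, where chance flags about 1 in 20. Cfd in STAT3cKO 2 was 16.89, above the other 4 STAT3cKO libraries. Pparg in STAT3cKO 2 was 0.064, the level of no read, below the others. Dgat1 in STAT3cKO 3 was 9.93, below 4 libraries at 10.93 to 11.06. Aqp7 in WT 5 was 0.079, again no read, while WT 1 to 4 had 6.36 to 8.14. STAT3cKO 2 had no read of 2617 tested genes, WT 5 of 983 and STAT3cKO 3 of 1097. Whether these values follow from that was not tested.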

How the results depend on the processing

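The median change of the members was negative in all 25 alternatives. It was -0.91 in the 4 libraries high in hair shaft genes, where WT 4 is the only WT library, and -2.16 to -1.52 in the other 24. It ranged from -2.09 to -1.60 without 1 library each. Scaling moved it little, to -1.75 with equal totals and -1.90 by the upper quartile, a setting chosen after the data were seen, as were those on hair shaft genes. The number of members called lower, 3 as reported, was 8 at a pseudocount of 16 and 15 with array quality weights. It was 13 in the 4 deeper libraries alone and 9 with the hair shaft list mean as a term. It was 0 in the 6 shallower libraries alone, and 0 without mean trend and robust estimation. At those settings 85, 173, 92, 74, 4 and 31 of all genes tested were called lower, against 53. Without 1 library each, the count of members called lower ranged from 0 to 11. The number called higher was 1 (Mgll) at a pseudocount of 16, with weights and with the hair term, and 0 to 1 without 1 library each. The causes were not tested, and counts of 0 in subsets of libraries say nothing of stability. Equal totals moved the median of all genes from -0.16 to -0.05 and the calls over all genes to 39 lower and 76 higher, against 53 and 61. Same-numbered libraries did not deviate together (r of -0.15 to 0.02). Libraries of 1 genotype differed widely, which can hide a pairing, so pairing by the titles' numbers is not excluded. With the replicate block 4 members were lower, Adipoq, Cfd, Fabp4 and Car3, with 32 of all genes tested called lower.

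Some members turned positive. Dgat1 was 0.0721 with equal totals, 0.12 with weights, 0.14 without STAT3cKO 2 and WT 3 together, 0.11 with the hair term, 0.93 in the 4 libraries high in hair shaft genes, and -0.31 to 0.17 without 1 library each, above 0 without STAT3cKO 3, WT 1 or WT 3. In the same 4 libraries, on the strength of WT 4 alone, Acsl1 was 0.0113, Lpin1 0.59, Cebpa 0.28 and Adipor2 0.80. In the 6 shallower libraries Lpin1 was 0.022 and Adipor2 0.0887. Ppargc1a was 0.87 in the 4 deeper libraries, and -2.42 to 0.10 without 1 library each, above 0 without STAT3cKO 1 or STAT3cKO 2. None of these passed. Libraries without a read of a gene limit Lep, Plin1, Gpam, Adrb3, Aqp7, Pparg and Ppargc1a.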
